A study of Mus musculus with 8 samples.

Results

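The myeloid C-type lectin receptors described here are 10 mouse genes: Clec4d, Clec4n, Clec4e, Clec7a, Clec4a2, Clec4a3, Clec5a, Clec10a, Clec12a and Clec9a. They were taken by gene name from the arrays, with every probe of each gene, which gave 11 of 55681 probes and 10 of 34741 gene names. Clec9a had 2 probes and each of the others had 1. RNA was measured on 8 single-colour Agilent arrays, 2 for each of 4 groups, all from C57BL/6 mice. Cells were grown from explants of the left atrial appendage of mice aged 8 to 12 weeks, after digestion with trypsin and collagenase D. The c-kit+/CD45- cells were sorted after strong digestion (trypsin at 0.25%, collagenase at 0.1%), and the c-kit+/CD45+ cells after weak digestion (trypsin at 0.05%, collagenase at 0.1%). Strength of digestion and CD45 sort therefore cannot be told apart. The passage 8 cells were derived from the c-kit+/CD45+ cells by culture to that passage. The controls were biopsies of the left ventricular wall at 12 weeks, a whole tissue, with RNA extracted by another reagent than that used for the cells. The labels do not say that replicates came from separate cultures or mice, and the p-values below therefore reflect the spread of these arrays alone, which may be technical.

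C-type lectin receptors are surface proteins of macrophages, monocytes, neutrophils and dendritic cells that bind sugars and lipids of microbes and of damaged cells. Clec4e (Mincle), Clec4d (MCL) and Clec4n (Dectin-2) pair with the adaptor Fcer1g and Clec5a (MDL-1) with Tyrobp, while Clec7a (Dectin-1, a receptor of fungal beta-glucan) carries its own tyrosine motif. These activating receptors signal through the kinase Syk and the scaffold Card9 to NF-kappaB. Clec4a2 (DCIR) and Clec12a carry inhibitory motifs that recruit the phosphatases Ptpn6 and Ptpn11. Clec10a binds galactose-type sugars, and Clec9a, which binds exposed actin of dead cells, marks cross-presenting dendritic cells.

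Of the 10 genes, 9 lie on chromosome 6, and Clec10a lies on chromosome 11. In build mm9 the probes lie at chr6:122919637-122919696 for Clec4a3, chr6:123093890-123093949 for Clec4a2, chr6:123196969-123197028 for Clec4n, chr6:123224788-123224847 for Clec4d and chr6:123232878-123232937 for Clec4e, which form 1 cluster. A second cluster holds Clec12a at chr6:129314880-129314939, Clec9a at chr6:129369605-129369664 and chr6:129372492-129372551, and Clec7a at chr6:129411739-129411798. Clec5a stands apart at chr6:40525116-40525175, and the Clec10a probe is at chr11:69984254-69984313. The files give these positions and no exon or UTR for them.

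RefSeq promoters (build GRCm38.p6) were matched for 8 of the 10 genes, in 10 windows of the 250 bases before a start site. The core GAGGAA, recognised by PU.1 (Spi1, the transcription factor of the myeloid lineage) and other ETS factors, was searched on both strands, and its reverse complement TTCCTC stands for the other strand. It was present in 7 of the 10 windows and in 6 of the 8 genes, against 23.3% of 32851 promoter windows of the same length. The 2 windows of Clec7a overlap and hold the same site. The C/EBP motif TTGCNNAA was present in the windows of Clec4e and Clec12a only, against 9.56% of all windows. No window held the AP-1 motif TGAGTCA (4.46% of all) or the E-box CACGTG (6.02% of all). Windows are shown for 3 receptors with large differences below, and for Clec4a2, which passed in no comparison. Of those not shown, Clec5a and Clec12a hold 2 cores each and Clec9a none, and Clec4a3 has a window with 1 core and a window with none. Clec4n and Clec10a had no matched promoter and are not among the 8 genes. Neither Clec5a nor Clec12a passed between the c-kit+/CD45- and c-kit+/CD45+ cells, and both passed at passage 8. Whether the core goes with the differences was not tested. Each runs in the direction of transcription, with the core or its reverse complement in capitals. The windows are chr6:123261857-123262106 (plus strand) for Clec4d, chr6:123289872-123290121 (minus strand) for Clec4e, chr6:129472780-129473029 (minus strand) for Clec7a and chr6:123122440-123122689 (plus strand) for Clec4a2. A match is a description of the letters and does not show that a factor binds there.
Clec4d: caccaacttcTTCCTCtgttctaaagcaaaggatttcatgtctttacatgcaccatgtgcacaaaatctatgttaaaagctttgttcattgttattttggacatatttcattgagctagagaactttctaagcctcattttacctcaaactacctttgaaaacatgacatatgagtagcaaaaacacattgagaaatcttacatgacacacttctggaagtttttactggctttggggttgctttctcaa
Clec4e: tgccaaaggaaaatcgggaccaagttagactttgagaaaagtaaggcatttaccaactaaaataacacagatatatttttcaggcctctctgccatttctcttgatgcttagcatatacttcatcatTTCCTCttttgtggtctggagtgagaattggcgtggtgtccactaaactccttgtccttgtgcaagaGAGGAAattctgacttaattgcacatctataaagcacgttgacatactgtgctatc
Clec7a: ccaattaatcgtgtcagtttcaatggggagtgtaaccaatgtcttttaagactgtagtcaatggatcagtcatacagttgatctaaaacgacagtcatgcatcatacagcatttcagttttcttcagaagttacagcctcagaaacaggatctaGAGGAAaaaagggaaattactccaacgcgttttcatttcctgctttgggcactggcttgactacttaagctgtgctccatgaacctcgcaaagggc
Clec4a2: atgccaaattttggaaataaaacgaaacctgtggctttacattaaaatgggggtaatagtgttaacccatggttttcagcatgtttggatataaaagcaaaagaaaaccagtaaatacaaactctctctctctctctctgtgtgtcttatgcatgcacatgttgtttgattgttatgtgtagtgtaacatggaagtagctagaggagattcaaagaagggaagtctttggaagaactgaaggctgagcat
The core starts 240 bases before the start site in Clec4d, 96 in this window of Clec7a, and 123 and 56 in Clec4e, while the Clec4a2 window has none.

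Levels are given as log2 of the processed signal minus the 75th percentile of the array, so 0 is the 75th percentile itself. A spot that the scanner software did not call well above background has only an upper bound, and folds against a group with no such spot are written as at least N-fold. Where 1 of the 2 arrays of a group was well above background, the fold is that of the measured means, followed by the fold with the dim spot raised to the lowest such level of its array where that differs. The labels were first checked against Ptprc, which encodes CD45. Its level was 2.04 and 1.93 in the c-kit+/CD45+ cells, -5.52 (not well above background) and -3.34 in the c-kit+/CD45- cells, -5.57 and -5.18 at passage 8, and -2.33 and -2.89 in the ventricle. Ptprc was thus high where the label says CD45+ and 164-fold lower at passage 8 (limma adjusted p = 0.00167). Kit, which encodes c-kit, was low in all sorted cells: -6.34 (not well above background) and -1.55 in the c-kit+/CD45- cells, and -3.57 and -3.33 in the c-kit+/CD45+ cells. It was -5.68 and -5.55 at passage 8. In the unsorted ventricle it was -1.48 and -2.48, above both c-kit+/CD45+ arrays. Kit passed in no comparison. The 2 sorted groups therefore follow their CD45 labels, while 1 of the c-kit+/CD45- arrays does not show its labelled Kit transcript above background.

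Of the 18 macrophage and monocyte markers on the array, 17 were well above background on both c-kit+/CD45+ arrays, Cd163 being the exception. Their signals, summed in units of the array's 75th percentile, came to 1177 and 1163 there, 61.8 and 112.6 in the c-kit+/CD45- cells, 34.9 and 35.5 at passage 8, and 106.8 and 101.1 in the ventricle. Against the c-kit+/CD45+ cells, 15 of 17 tested were lower and 1 higher in the c-kit+/CD45- cells. Over all genes tested in that comparison, 10.5% were lower and 11.2% higher. Itgam went the other way, at 288% and 338% of the c-kit+/CD45+ mean in the c-kit+/CD45- cells. It stood at 140% and 143% at passage 8, and at 286% and 303% in the ventricle. Ccr2 reached 337% and 370% in the ventricle. The neutrophil list had 2 of 8 genes tested lower in the c-kit+/CD45- cells and 1 higher. S100a8 was at least 12.7-fold and Mmp9 at least 26.6-fold lower, and Camp 2.23-fold higher. The dendritic list had 4 of 9 lower and 1 higher, with Itgax 99.2-fold and Batf3 8.30-fold lower and Tcf4 3.64-fold higher. The summed levels of these lists were 149 and 129 (neutrophil) and 267 and 237 (dendritic) in the c-kit+/CD45+ cells, against 115 and 203, and 229 and 343, in the c-kit+/CD45- cells, and were mostly the signal of Csf3r and Siglech, which did not pass. The neutrophil genes S100a9, Ltf, Ngp, Retnlg and Cxcr2 and the dendritic genes Xcr1, Ccr7, Itgae, Dpp4, Cd209a and Ccr9 were not well above background on either c-kit+/CD45+ array. The part of these cell types in the receptor levels was not tested. In bulk RNA, fewer cells of a type and less RNA per cell cannot be told apart, and this holds for all differences below.

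The activating receptors had their highest group means in the c-kit+/CD45+ cells. Clec4d, which helps bring Mincle to the cell surface, had levels of 5.92 and 5.88 there, -4.17 and 0.88 in the c-kit+/CD45- cells, -7.83 (not well above background) and -5.24 at passage 8, and -3.64 and -2.68 in the ventricle. The processed signals behind these were 50837 and 52806 in the c-kit+/CD45+ cells, and 28.9 and 784 in the c-kit+/CD45- cells. The c-kit+/CD45+ arrays lie within 0.05 of each other, while the c-kit+/CD45- arrays lie 33.2-fold apart.

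Clec4n, the receptor of fungal mannans, had levels of 5.99 and 5.98 in the c-kit+/CD45+ cells, -2.88 and 0.88 in the c-kit+/CD45- cells, -4.55 and -3.82 at passage 8, and -0.06 and -0.34 in the ventricle. It was well above background on all 8 arrays, and no other group reached the c-kit+/CD45+ level. Clec7a, the beta-glucan receptor, had levels of 4.79 and 4.89 in the c-kit+/CD45+ cells, -3.80 and 0.73 in the c-kit+/CD45- cells, and -0.88 and -0.37 in the ventricle. At passage 8 its spots (-6.06 and -5.91) were not well above background. Clec4n and Clec7a had the most alike profiles of any pair of these receptors over the 8 arrays, with a root mean square difference of 0.63 log2 units after centring and r = 0.99.

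Clec4e, the receptor of mycobacterial cord factor, had levels of 2.31 and 2.44 in the c-kit+/CD45+ cells. Elsewhere it was well above background on a single array, c-kit+/CD45- replicate 2, at -2.61. Clec5a was at -3.04 and -4.51 in the c-kit+/CD45+ cells, and its spots were not well above background in any other group.

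Of the inhibitory receptors, Clec12a, which dampens responses to uric acid crystals, had levels of -2.56 and -2.54 in the c-kit+/CD45+ cells and -2.80 in c-kit+/CD45- replicate 1, and was not well above background on the other 5 arrays. Clec4a2 had levels of -1.98 and -2.52 in the c-kit+/CD45+ cells, -3.15 and -1.20 in the c-kit+/CD45- cells, and -2.93 and -3.25 in the ventricle. At passage 8 it was -3.65 on replicate 2, its spot on replicate 1 being left out as an outlier. All its measured levels thus lie from -3.65 to -1.20, and those of the c-kit+/CD45- and c-kit+/CD45+ arrays overlap.

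Clec4a3, a further member of the DCIR family, had levels of 0.47 and 0.55 in the c-kit+/CD45+ cells and -2.42 and -1.50 in the ventricle. It was -1.96 in c-kit+/CD45- replicate 2 and not well above background in replicate 1 or at passage 8. Clec10a was the only one of these receptors whose ventricle arrays lay above the c-kit+/CD45+ arrays, at 0.18 and 0.58 against -0.25 and -0.23, and it was not well above background in the c-kit+/CD45- or passage 8 cells. Neither Clec9a probe was well above background on any array, so no level or difference is given for it.

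**Figure D1:**
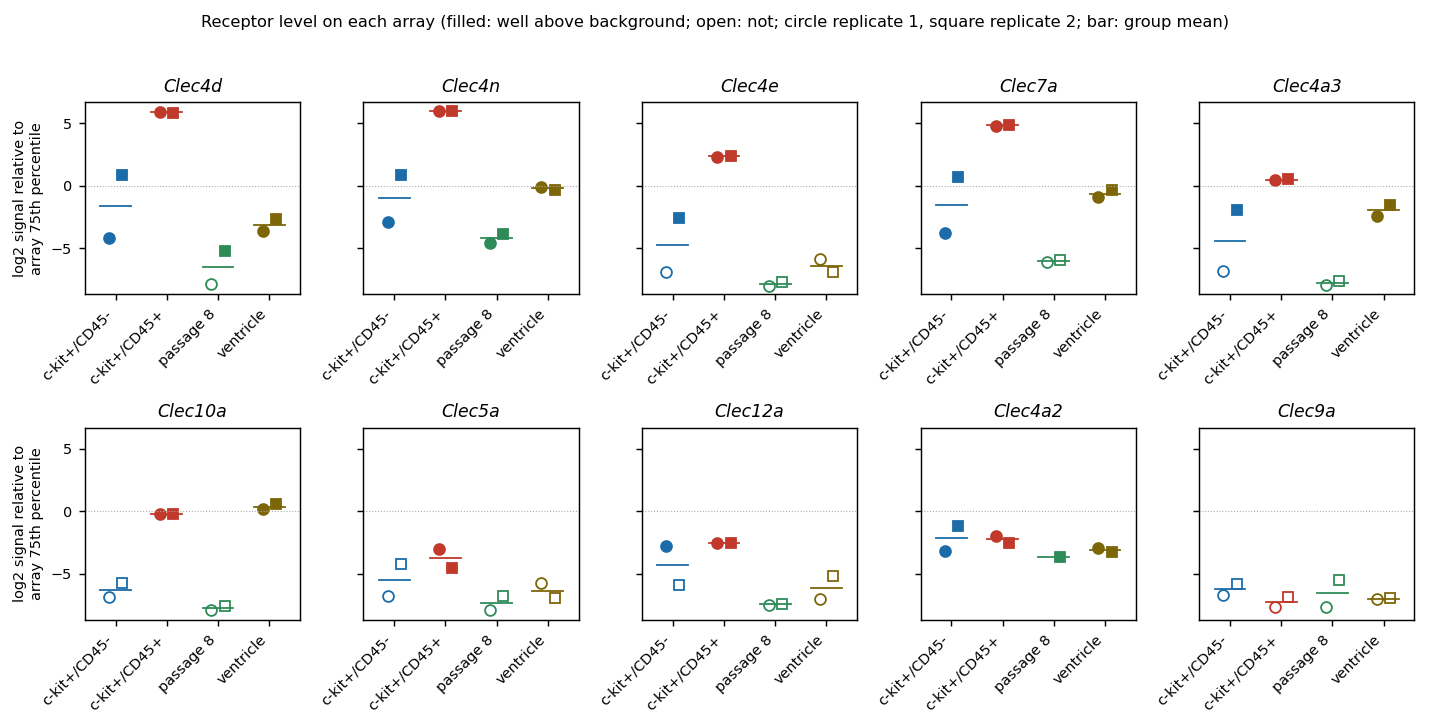
Level of the 10 receptors on each of the 8 arrays (y axis, log2 signal relative to the array's 75th percentile) by group (x axis). Filled points are well above background, circles are replicate 1, squares replicate 2 and bars group means; the c-kit+/CD45+ points of Clec4d (5.92 and 5.88) and Clec4n (5.99 and 5.98) top their panels, and all Clec9a points are open.

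The c-kit+/CD45- cells had lower levels of Clec4d, Clec4n, Clec4e, Clec7a and Clec10a than the c-kit+/CD45+ cells, a comparison of the cell types obtained under the separate digestion protocols. Of the 9 receptors tested, 5 were lower and 0 higher at an adjusted p under 0.05 and a difference of at least 1 log2 unit. Among all genes tested in this comparison, 10.5% were lower and 11.2% higher, 21.7% in all. Clec4e, Clec4a3, Clec5a, Clec10a and Clec12a were tested only because both c-kit+/CD45+ arrays were well above background. A higher call was hardly open to them, so the count of 0 higher carries little weight. The median difference of the 9 receptors was -6.09, against 0.17 over all genes tested. Clec4d was 187-fold lower (log2 difference -7.55 ± 1.69 SE, limma adjusted p = 0.0256), Clec4n 127-fold lower (-6.99 ± 1.14, adjusted p = 0.0101) and Clec7a 83.0-fold lower (-6.38 ± 1.34, adjusted p = 0.0216). Clec4e was 140-fold lower, or at least 65.5-fold with the dim spot of 1 of 2 c-kit+/CD45- arrays at its bound (adjusted p = 0.0142), and Clec10a was at least 20.9-fold lower (adjusted p = 0.00207).

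The other 4 receptors tested did not pass in that comparison. Clec4a3 had a difference of -4.91 (95% interval -8.50 to -1.31, limma adjusted p = 0.0573), with no overlap between the groups. Leaving out 1 c-kit+/CD45- array takes away the spread of that group. The difference was then -2.47 without replicate 1 and -7.34 without replicate 2. With all arrays Clec4a3 passed under quantile and median scaling, normexp, the authors' values, array weights, robust moderation and the replicate block, where adjusted p was at most 0.0488. For Clec12a the difference was -1.79 (interval -4.42 to 0.84, adjusted p = 0.264), and it passed with the authors' values (-1.91, adjusted p = 0.00212). Without c-kit+/CD45- replicate 1 it was -3.33. The difference was -1.74 for Clec5a, with overlapping groups and no c-kit+/CD45- spot well above background (interval -4.23 to 0.75, adjusted p = 0.254). Clec4a2 differed by 0.08 (interval -1.70 to 1.85, adjusted p = 0.944), an interval that still includes a difference of 1 log2 unit in either direction. The calls rest on the spread pooled over 8 arrays: with only the 4 arrays compared 1 receptor passed. Without either c-kit+/CD45+ array 1 receptor passed too, Clec10a, and adjusted p rose to between 0.0671 (Clec4n) and 0.135 (Clec4d) for the other 4. Clec4d also lost its call without either ventricle array (adjusted p = 0.0519). Each of the 2 settings without a c-kit+/CD45+ array kept the direction, at -6.33 or below for those 4.

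The c-kit+/CD45- arrays differed from each other in these genes. Between them, 7 receptors were well above background on at least 1 array, and 6 of these were higher in replicate 2: Clec4d 33.2-fold, Clec4a3 29.4-fold, Clec7a 23.2-fold, Clec4e 19.6-fold, Clec4n 13.6-fold and Clec4a2 3.86-fold. Clec12a went the other way, 3.08 log2 units lower in replicate 2. Of 15 macrophage markers measured in the same way, 14 were higher in replicate 2, with a median of 3.02 log2 units against 4.29 for the receptors. Ptprc was higher in replicate 2 as well, by the values given above. The part of this marker signal in the receptor levels was not tested.

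The receptors and macrophage markers of the other arrays were also expressed as a share of the c-kit+/CD45+ mean of the same gene. In c-kit+/CD45- replicate 2, where 6 of 9 receptors and 15 of 17 markers were well above background, the median shares were 5.79% and 4.93%. In replicate 1, with 5 of 9 and 13 of 17 above background, the middle receptor and the middle marker were dim spots, whose measured shares were 0.616% and 0.566%. On the ventricle arrays the medians were 4.38% and 11.01% for the receptors, again dim spots, and 4.37% and 3.20% for the markers. Within replicate 2, Clec4d stood at 3.08%, Clec4e at 3.16%, Clec4n at 2.90% and Clec7a at 5.79%. Clec4a3 was higher, at 18.1%, and Clec4a2, at 207%, exceeded the c-kit+/CD45+ level.

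**Figure D2:**
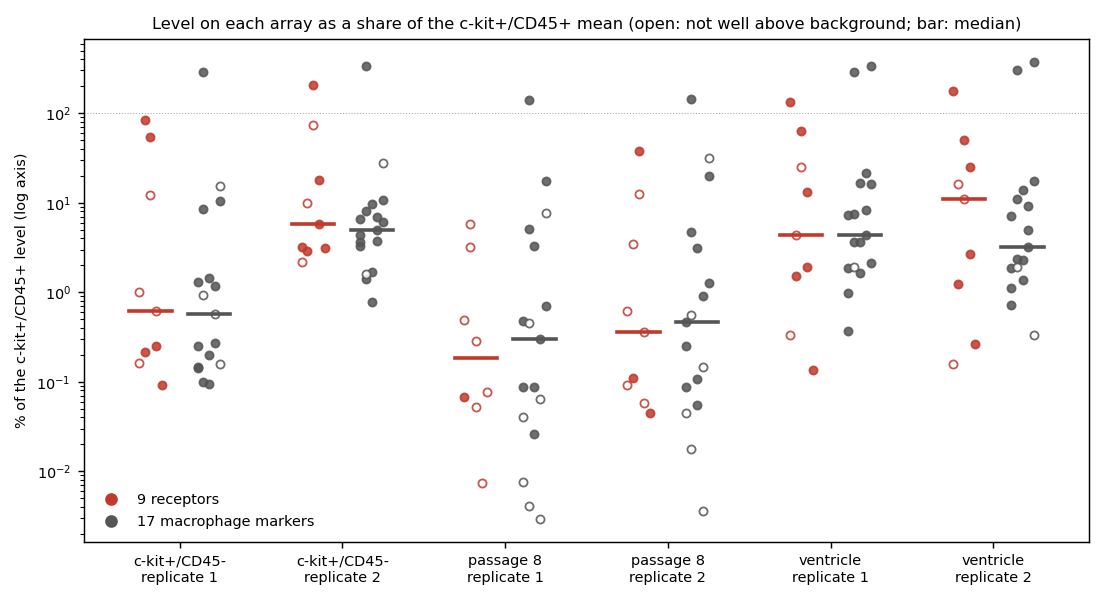
Signal of 9 receptors and 17 macrophage markers on each array outside the c-kit+/CD45+ group (x axis), as a percentage of the c-kit+/CD45+ mean of the same gene (y axis, log scale). Bars are medians of the measured shares and open points are not well above background; Clec4d, Clec4e, Clec4n and Clec7a lie at 2.90% to 5.79% on the array of c-kit+/CD45- replicate 2, and Clec10a lies at 133% and 176% in the ventricle.

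After culture to passage 8, nearly all of the receptors had fallen from the level of the c-kit+/CD45+ cells they came from. Of 9 tested, 8 were lower and 0 higher, where 10.9% of all genes tested were lower and 12.6% higher (23.5% in all), and the median difference was -8.27 against 0.16 over all genes. Clec4d, Clec4e, Clec7a, Clec4a3, Clec5a, Clec10a and Clec12a were tested only because both c-kit+/CD45+ arrays were well above background. A higher call was hardly open to them, so the count of 0 higher carries little weight. Clec4d was 5536-fold lower, or at least 2793-fold with the dim spot of 1 of 2 passage 8 arrays at its bound (log2 difference -12.43 ± 1.69 SE, limma adjusted p = 0.00488), and Clec4n 1155-fold lower (-10.17 ± 1.14, adjusted p = 0.00268). For the receptors with no passage 8 spot well above background the falls are bounds. Clec7a fell at least 1500-fold (adjusted p = 0.0037), Clec4e at least 271-fold (0.00406), Clec4a3 at least 74.4-fold (0.0111) and Clec10a at least 44.4-fold (0.00052).

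Clec12a fell at least 8.93-fold (limma adjusted p = 0.0216) and Clec5a at least 3.82-fold (adjusted p = 0.0485). Clec4a2, measured on 1 passage 8 array, had a difference of -1.40 (95% interval -3.57 to 0.77, adjusted p = 0.281) and did not pass. Without either c-kit+/CD45+ array 5 receptors passed: Clec12a (adjusted p up to 0.108), Clec4a3 (up to 0.0688) and Clec5a (up to 0.218) were lost. Clec5a also lost its call without any 1 of the passage 8 or ventricle arrays and under normexp background correction (adjusted p = 0.107), and Clec12a without either passage 8 array.

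Clec4n, Clec4d and Clec4a2 thus remained detectable at passage 8. Clec4n was at 0.0674% and 0.111% of the c-kit+/CD45+ level on the 2 arrays. On replicate 2 Clec4d was at 0.0445% and Clec4a2 at 37.9%. The median shares of all receptors measured were 0.182% and 0.364% on replicates 1 and 2, set by dim spots. Over 17 macrophage markers, the median shares on these arrays were 0.303% and 0.466%. Of the markers, 10 were well above background on both passage 8 arrays, while Adgre1, C1qa, C1qc, Cx3cr1, Ccr2, Cd163 and Spi1 were not on either. The comparisons of the c-kit+/CD45- and the passage 8 cells share the c-kit+/CD45+ arrays, so their agreement is not independent.

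**Figure D3:**
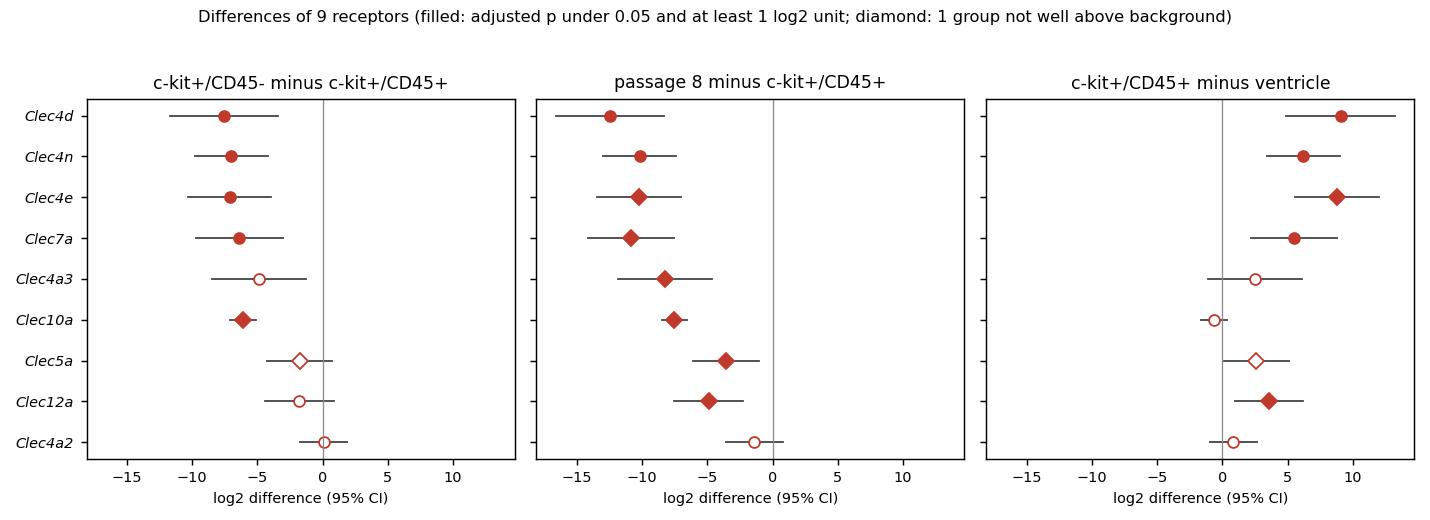
Log2 differences with 95% intervals (x axis) of the 9 receptors measured above background (y axis) in 3 comparisons. Filled symbols passed the test and diamonds mark receptors with 1 group not well above background: 5 were lower in the c-kit+/CD45- cells, 8 were lower at passage 8, and 5 were higher in the c-kit+/CD45+ cells than in the ventricle.

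The passage 8 and c-kit+/CD45- cells were set against each other directly. In that comparison 4 receptors could be tested and 0 passed in limma; 3 had an unadjusted p under 0.05. Among all genes tested, 6.98% were lower and 6.96% higher at passage 8, 13.9% in all. Clec7a was at least 18.1-fold lower at passage 8 (adjusted p = 0.0789), Clec4d 29.6-fold lower, or at least 15.0-fold with 1 of 2 passage 8 arrays above background (adjusted p = 0.108), Clec4n 9.09-fold lower (adjusted p = 0.116) and Clec4a2 2.79-fold lower (adjusted p = 0.294). The intervals of Clec7a, Clec4d and Clec4n lay below 0, at -7.76 to -1.15, -9.05 to -0.73 and -5.98 to -0.39. Passage 8 levels were below both c-kit+/CD45- arrays for all 4 receptors.

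The count in that comparison turned on which c-kit+/CD45- array was used. Without c-kit+/CD45- replicate 1, 6 of 6 receptors tested were lower at passage 8, and without replicate 2, 2 of 5 were. On the median scale, 3 of the 4 passed: Clec4d (limma adjusted p = 0.0483), Clec4n (0.0499) and Clec7a (0.0302).

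The ventricle, a tissue with its own resident macrophages, was set against each cell group. The c-kit+/CD45+ cells were higher than it for 5 of 9 receptors and lower for 0, where 18.3% of all genes tested were higher and 19.8% lower (38.1% in all). Clec4e, Clec5a and Clec12a were tested only because both c-kit+/CD45+ arrays were well above background. A lower call was hardly open to them, which limits what the count of 0 lower shows. Clec4d was 534-fold higher (limma adjusted p = 0.00767), Clec4e at least 161-fold (0.00336), Clec4n 73.0-fold (0.00724), Clec7a 44.2-fold (0.0204) and Clec12a at least 5.32-fold (0.0388). Clec10a had a difference of -0.61 (95% interval -1.60 to 0.37, adjusted p = 0.26), Clec4a3 of 2.47 (adjusted p = 0.219), Clec4a2 of 0.84 (adjusted p = 0.371), and Clec5a was at least 2.28-fold higher without passing (adjusted p = 0.0865). Without ventricle replicate 1, 2 receptors passed, Clec4e and Clec4n, and without either c-kit+/CD45- array 7 did, Clec4a3 and Clec5a being added.

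The share of the c-kit+/CD45+ level that the ventricle reached therefore differed from receptor to receptor. It was 0.135% and 0.261% for Clec4d, 1.51% and 1.24% for Clec4n, 1.89% and 2.70% for Clec7a, 13.1% and 24.9% for Clec4a3, and 133% and 176% for Clec10a. Mrc1, the mannose receptor of tissue macrophages, had levels of 2.19 and 1.65 in the ventricle and 5.73 and 5.76 in the c-kit+/CD45+ cells (limma adjusted p = 0.0775).

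Against the ventricle, the passage 8 cells were lower for 4 of 6 receptors and higher for 0, where 18.8% of all genes were lower and 20.3% higher (39.2% in all). Clec4d, Clec7a, Clec4a3 and Clec10a were tested only because both ventricle arrays were well above background. A higher call was hardly open to them, so the count of 0 higher carries little weight. Clec10a was at least 68.0-fold lower (limma adjusted p = 0.000126), Clec7a at least 33.9-fold (0.021), Clec4a3 at least 13.4-fold (0.0214) and Clec4n 15.8-fold (0.0323). Clec4d had a difference of -3.37 (adjusted p = 0.154) and Clec4a2 of -0.56 (adjusted p = 0.622). Without any 1 of the 4 arrays compared, 1 receptor passed, Clec10a.

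In the c-kit+/CD45- cells, only Clec10a passed against the ventricle, at least 31.9-fold lower (limma adjusted p = 0.000204). There 1 of 6 receptors was lower and 0 higher, where 19.2% of all genes were lower and 20.3% higher (39.5% in all). Clec10a and Clec4a3 were tested only because both ventricle arrays were well above background, so a higher call was hardly open to them. The ventricle levels of Clec4d, Clec4n and Clec7a lay between those of the c-kit+/CD45- arrays, and those of Clec4a2 and Clec4a3 overlapped them. The sign of several differences depended on which c-kit+/CD45- array was kept. Clec7a was -0.91 with both, 1.36 without replicate 1 and -3.18 without replicate 2. Clec4n was -0.80 with both and 1.08 without replicate 1, and Clec4d 1.51 with both and -1.01 without replicate 2. Clec4a2 (0.91 to -0.06 without replicate 2) and Clec4a3 (-2.44 to 0.00039 without replicate 1) were then close to 0. Each of these 2 settings gave 5 receptors passing, 1 lower and 4 higher without replicate 1, and 4 lower and 1 higher without replicate 2.

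The partners through which these receptors signal were counted next, in lists of adaptors, scaffold and transcription factors, phosphatases and secreted products. The adaptors and proximal kinases fell with the receptors. In the c-kit+/CD45- cells 16 of 18 tested were lower and 0 higher (median -4.45, against 0.17 over all genes), and at passage 8 16 of 19 were lower and 0 higher (median -5.97 against 0.16). Over all genes tested, 10.5% were lower and 11.2% higher in the c-kit+/CD45- cells, and 10.9% lower and 12.6% higher at passage 8. In this list and those that follow, some genes were tested only because both c-kit+/CD45+ arrays were well above background. A higher call was hardly open to these genes, which limits what the counts of 0 higher show. Fcer1g, the gamma chain of Mincle, MCL and Dectin-2, had levels of 7.15 and 7.16 in the c-kit+/CD45+ cells, -1.19 and 1.99 in the c-kit+/CD45- cells, -2.27 and -2.17 at passage 8, and 2.00 and 1.57 in the ventricle. It was 108-fold lower in the c-kit+/CD45- cells (limma adjusted p = 0.00678) and 662-fold lower at passage 8 (adjusted p = 0.00206).

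Among these adaptors, Tyrobp, the partner of Clec5a, fell 155-fold in the c-kit+/CD45- cells (limma adjusted p = 0.0196) and, with 1 of 2 passage 8 arrays above background, 13794-fold at passage 8, or at least 7330-fold (adjusted p = 0.00245). Blnk, a linker downstream of Syk, fell 171-fold and, with 1 of 2 passage 8 arrays above background, 4030-fold, or at least 2986-fold, and Vav1, a guanine nucleotide exchange factor, fell 106-fold, with 1 of 2 c-kit+/CD45- arrays above background, and at least 1525-fold. Syk itself changed less, 13.8-fold lower in the c-kit+/CD45- cells (adjusted p = 0.00207) and 99.4-fold lower at passage 8 (adjusted p = 0.000404). It stayed well above background on all 8 arrays, at 3.94 and 3.97 in the c-kit+/CD45+ cells and -2.61 and -2.75 at passage 8. Lck and Vav2 did not pass in either comparison, and Src was tested, without passing, at passage 8.

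The scaffold and NF-kappaB list changed in fewer of its genes than the adaptor list. In each of the 2 comparisons 5 of 17 were lower and 0 higher, with medians of -0.26 and -0.21. The shares lower over all genes tested were 10.5% and 10.9%. Card9, the scaffold named above, was at -3.21 and -2.51 in the c-kit+/CD45+ cells, and was at least 3.39-fold lower in the c-kit+/CD45- cells (limma adjusted p = 0.0129) and at least 6.94-fold lower at passage 8 (adjusted p = 0.013). Nfatc2, Casp1 and Pycard also fell in both comparisons, with Malt1 in the c-kit+/CD45- cells and Nfatc1 at passage 8. Nfatc2, a calcium-regulated transcription factor, was 63.7-fold (1 of 2 c-kit+/CD45- arrays above background) and at least 371-fold lower, and Casp1, the inflammasome protease, 24.4-fold and at least 833-fold lower. Bcl10, the partner of Card9, had differences of 0.12 and -0.37, and Nfkb1, Rela and Relb did not pass in either comparison.

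The phosphatases that serve inhibitory receptors were lower for 5 of 6 genes in both comparisons, where 10.5% and 10.9% of all genes tested were lower. Ptpn6 (SHP-1), found mainly in blood cells, fell 28.9-fold (limma adjusted p = 0.00358) and 187-fold (adjusted p = 0.00073), and Inpp5d (SHIP-1) 96.1-fold and, with 1 array of 2 above background in each case, 1077-fold, or at least 94.1-fold and 883-fold. Dok2 and Dok3, docking proteins that restrain signalling, fell 31.9-fold and 11.5-fold in the c-kit+/CD45- cells, and Ptpn22 8.56-fold. Ptpn11 (SHP-2), which most cell types express, was the gene that did not pass, with differences of 0.83 and 0.22.

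Of the secreted products induced through these receptors, 6 of 12 tested were lower in the c-kit+/CD45- cells and 10 of 12 at passage 8, with 0 higher in both. Only 5 products were well above background on both c-kit+/CD45- arrays, and 5 on both passage 8 arrays, against 12 in the c-kit+/CD45+ cells. The others were tested only through the c-kit+/CD45+ arrays, so the count of 0 higher carries little weight. Among all genes tested, 10.5% and 10.9% were lower. The macrophage chemokine Ccl3 had levels of 4.36 and 4.39 in the c-kit+/CD45+ cells and -4.60 (not well above background) and -0.15 in the c-kit+/CD45- cells. It was not well above background at passage 8 (at least 1074-fold lower, limma adjusted p = 0.00447). Ccl4 behaved alike, at least 1365-fold lower at passage 8 (adjusted p = 0.00546), and Il1b was at least 48.0-fold lower there (adjusted p = 0.00526). Il6, which stromal cells also make, had nearly the same level in both sorted groups, 3.87 and 4.25 against 3.89 and 3.92, and fell 5.50-fold at passage 8 (adjusted p = 0.00595). These counts also rest on the c-kit+/CD45+ arrays: without 1 of them the lower calls in the c-kit+/CD45- cells went from 16 to 3 adaptors, 5 to 1 in the NF-kappaB list, 5 to 2 phosphatases and 6 to 0 products. At passage 8 the lowest such counts were 13, 4, 3 and 8.

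**Figure D4:**
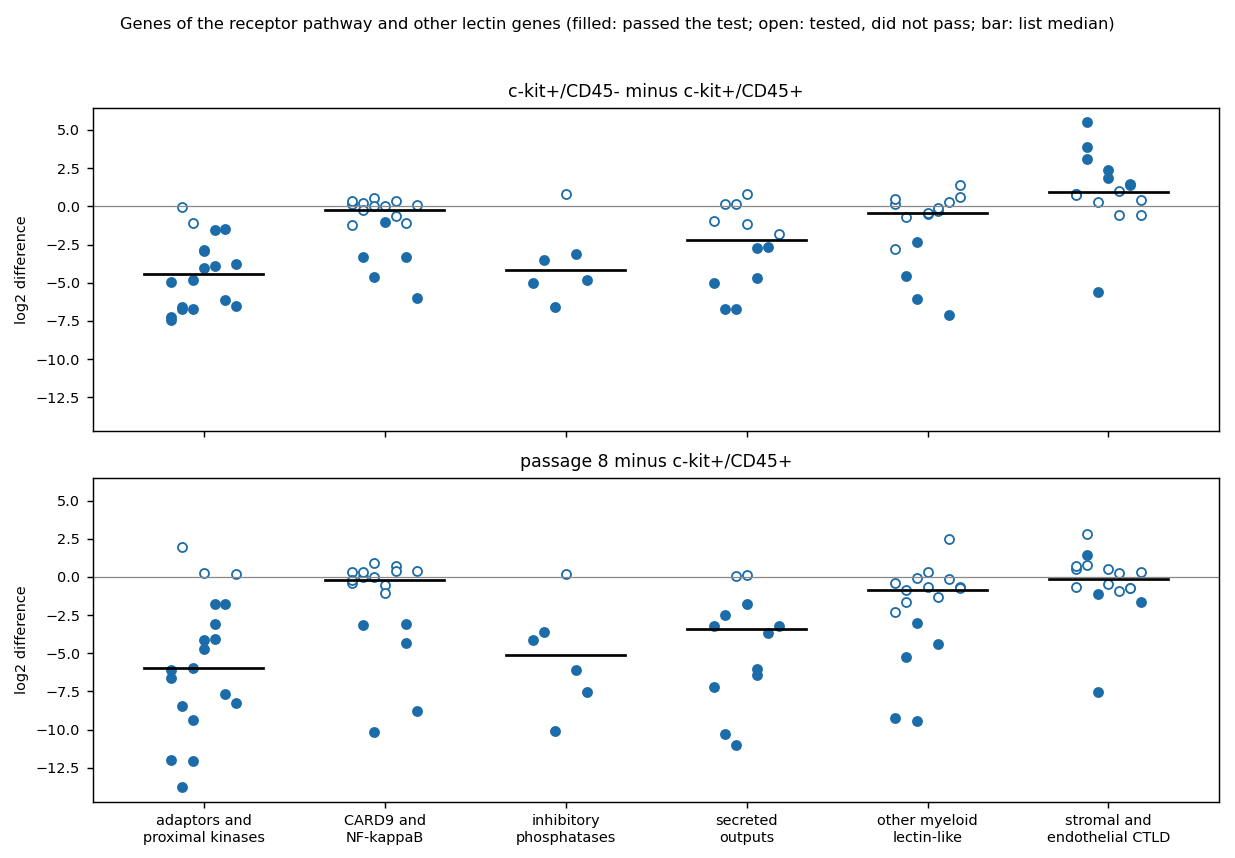
Log2 differences (y axis) of the genes tested in 6 lists (x axis), in the c-kit+/CD45- cells (top) and at passage 8 (bottom), each against the c-kit+/CD45+ cells. Filled points passed the test and bars are list medians, -4.45 and -5.97 for the adaptors and proximal kinases and 0.93 and -0.11 for the stromal and endothelial genes with a C-type lectin domain (CTLD).

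Other lectin and lectin-like receptors of myeloid cells, a list that also holds the sialic acid lectin Siglech, were mostly dim or did not pass: 4 of 15 tested were lower in the c-kit+/CD45- cells and 5 of 17 at passage 8, with 0 higher. Of all genes tested, 10.5% and 10.9% were lower. Genes tested through the c-kit+/CD45+ arrays alone were hardly open to a higher call here too. Mrc1 fell 136-fold in the c-kit+/CD45- cells (limma adjusted p = 0.0193) and 609-fold at passage 8 (adjusted p = 0.00743). Clec4b1 fell 67.4-fold, or at least 33.1-fold with 1 of 2 c-kit+/CD45- arrays above background (adjusted p = 0.0331), and at least 188-fold at passage 8. Clec4a1 fell 23.7-fold and 38.1-fold, and Cd209g at least 2.10-fold and at least 4.48-fold. Klra2 fell 20.7-fold at passage 8. Without 1 c-kit+/CD45+ array the counts went to as low as 1 and 3.

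Genes with a C-type lectin domain that are typical of stromal and endothelial cells moved the other way in the c-kit+/CD45- cells. There 6 of 16 tested were higher and 1 lower (median 0.93), and at passage 8 1 was higher and 3 lower (median -0.11). The shares over all genes tested were 11.2% higher and 10.5% lower in the c-kit+/CD45- cells, and 12.6% higher and 10.9% lower at passage 8. Vcan, which encodes the matrix proteoglycan versican, was 14.9-fold higher in the c-kit+/CD45- cells (limma adjusted p = 0.00206), Cd248 (endosialin, of pericytes and fibroblasts) 8.47-fold (adjusted p = 0.00233) and Frem1, with 1 of 2 c-kit+/CD45+ arrays above background, 45.4-fold, or at least 45.1-fold (adjusted p = 0.0118). Clec11a, Mrc2 and Pla2r1 also rose. Cd93, which endothelial and myeloid cells share, fell 49.2-fold (adjusted p = 0.00623). The 6 higher calls went to 2 without either c-kit+/CD45+ array. Fibroblast markers moved with this list, 11 of 15 higher and 0 lower in the c-kit+/CD45- cells, with summed levels of 1540 and 1628 against 657 and 630, and their part in the result was not tested.

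The genes around the receptors on chromosome 6 did not share 1 pattern. In the cluster of Clec4a3 to Clec4e, C3ar1 (the receptor of complement C3a), Clec4a1 and Clec4b1 fell in both comparisons, C3ar1 with log2 differences of -7.62 and -9.14 (limma adjusted p = 0.0175 and 0.00862). Necap1 and Foxj2, on either side of C3ar1, had differences of -0.66 and -1.27 in the c-kit+/CD45- cells and did not pass. Clec4a2, which lies between Clec4b1 and Clec4b2 in the same cluster, did not pass either, and Clec4a4 and Clec4b2 were not well above background on any array. In the cluster of Clec12a to Clec7a, Clec1a and Clec12b were well above background in the ventricle alone. Clec1b, a platelet receptor, had similar group means from -1.84 to -1.38, and Olr1, which binds oxidised lipoprotein, was well above background in all cell groups and not in the ventricle.

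**Figure D5:**
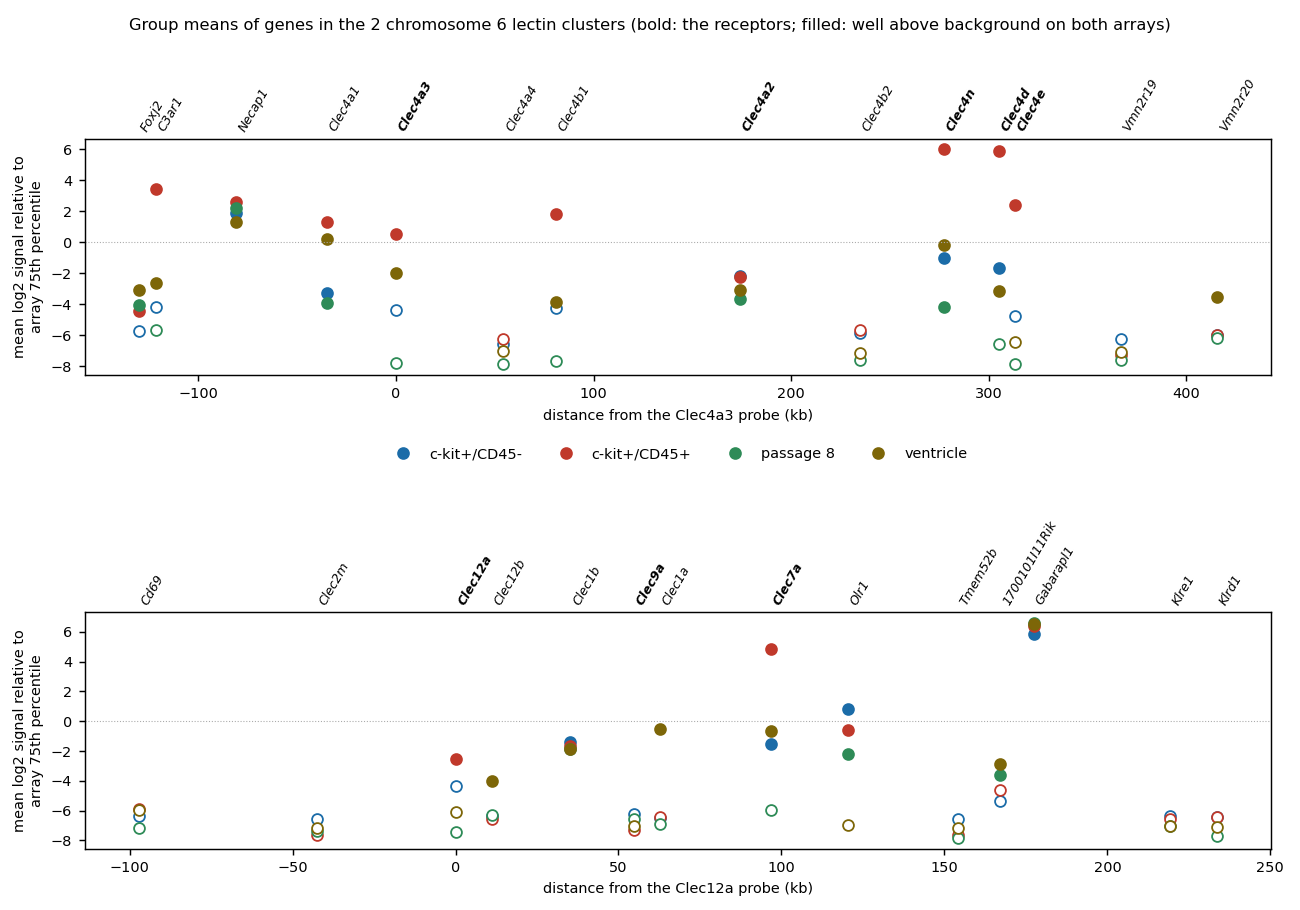
Group mean levels (y axis, log2 relative to the array's 75th percentile) of the genes in the 2 chromosome 6 clusters by distance in kb from the first receptor's probe (x axis). Filled points are well above background on both arrays; levels of different probes are not comparable, so the spread of the 4 groups within a gene is what it shows, from -4.18 (passage 8) to 5.99 (c-kit+/CD45+) for Clec4n and from -1.84 to -1.38 for Clec1b.

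Among the genes with profiles nearest to the mean centred profile of the 9 receptors, of 15396 candidates, were Ptpn6, Cybb, Ncf1, Siglec1, Parvg, Cytip and Mctp1. Their root mean square differences from it ran from 0.52 (Ptpn6) to 0.65 (Mctp1) log2 units over 8 arrays, with r from 0.977 to 0.988. Cybb and Ncf1 encode parts of the phagocyte NADPH oxidase, and Siglec1 is a sialic acid receptor of macrophages. Of the receptors themselves, Clec7a and Clec4n lay closest in r to that profile (0.993 and 0.990) and Clec4a2 farthest (0.606). The 8 arrays behind these values form 4 groups, so r mainly reflects the group means.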

How the data were processed

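RNA from 8 samples was hybridised to 1-colour Agilent arrays, 2 per group. Per the file headers, the scanner files were made with Feature Extraction and hold spot intensity as the processed signal (background subtracted) with flags for spots well above background. The authors' deposited value table is on a log2 scale with column medians of 6.087 to 6.094; it ranks probes as median signal minus background does, and its further scaling is unknown. Here the processed signal was put on the log2 scale and the array's 75th percentile subtracted. Control spots (3671 of 62976) and outlier spots were left out, repeated spots were averaged, and a gene was read from its brightest probe. By accession, 27229 probes were matched to RefSeq. The symbol was updated for 3402 probes, through the accession or, failing that, a unique synonym.

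limma 3.58.1 (R 4.3.3) was fitted to all genes with 1 mean per group, and was tested on simulated data. Tests covered genes with both arrays of either group well above background. A gene that met this in 1 group alone could hardly pass as higher in the other. Passing required a p under 0.05, adjusted by Benjamini-Hochberg over all genes, and a difference of at least 1 log2 unit. An exact permutation test of 2 against 2 arrays cannot go below p = 0.333. At-least folds set the bright group's mean against, per array, the higher of the lowest signal well above background and the dim spot's own. The scanner software called 51.5% to 69.9% of spots above background; the number of arrays limits precision.

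Every receptor was described. List genes were named by size of change among those passing, with key pathway members. Receptors and lists were chosen with earlier results of these data known. Replicate numbers did not pair the arrays. Some genes that these rules would name are not reported here.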

Additional observations from a re-analysis of the deposited data

How the results depend on the processing

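Of 43 single-receptor differences under 12 alternatives, 453 values kept their side of the threshold, 29 gained and 11 lost the call; leaving out 1 array kept 274, gained 19, lost 47 and turned 1 with a call. The sign changed in 7 values on leaving out 1 array and in 2 otherwise, all but 1 of them with no call on either side. The exception was Clec7a in the c-kit+/CD45- cells against the ventricle, 1.36 without c-kit+/CD45- replicate 1 and -3.18 without replicate 2. Counts of receptors passing moved as follows. Requiring signal above background on all 4 arrays compared gave 3 in place of 5 (c-kit+/CD45- against c-kit+/CD45+), 1 in place of 8 (passage 8 against c-kit+/CD45+), 0 in place of 1 (c-kit+/CD45- against ventricle), 3 in place of 5 (c-kit+/CD45+ against ventricle) and 1 in place of 4 (passage 8 against ventricle), since fewer genes are tested. Fitting only the 4 arrays compared gave 1 for the first of these. For passage 8 against c-kit+/CD45-, 0 became 1 by quantile normalization and 3 by median scaling, by normexp and by robust moderation. For c-kit+/CD45- against ventricle, normexp and the authors' table gave 2 each. Beyond what fewer genes or arrays set, the cause was not tested. Leaving out 1 array gave 1 to 7, 5 to 8, 0 to 6 (passage 8 against c-kit+/CD45-), 1 to 5, 2 to 7 and 1 to 5 in the comparisons in the order above.

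With the replicate number as a block, the counts were 6, 7, 0, 1, 4 and 4 in the same order: Clec4a3 gained the first call (adjusted p = 0.0488), Clec5a lost the second (0.0729) and Clec12a the fifth (0.0581). Same-numbered arrays correlated between -0.197 and 0.193, and 4 of 8 arrays correlated best with their own number.

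Over all genes, 4677 passed between c-kit+/CD45- and c-kit+/CD45+ cells (2260 lower), against 3023 (1954 lower) on the median scale, 1973 with only the 4 arrays compared, and 1120 and 802 without c-kit+/CD45+ replicate 1 and 2. For passage 8 against c-kit+/CD45+, 5509 passed (2556 lower), against 3826 (2277 lower) on the median scale and 2410, 2182 and 2889 without those arrays and without passage 8 replicate 2. For passage 8 against c-kit+/CD45-, 3173 passed (1588 lower), against 1870 on the median scale, 900 and 851 without passage 8 replicate 1 and 2, 1568 without either c-kit+/CD45+ array, 5175 without c-kit+/CD45- replicate 1, 3435 (2365 lower) by normexp, 2094 with array weights and 181 with only the 4 arrays compared. For c-kit+/CD45+ against ventricle, 8802 passed (4576 lower), against 8026 (3347 lower) on the median scale and 5651 without c-kit+/CD45+ replicate 2.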

Other observations

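Other pattern recognition and phagocytic receptors of myeloid cells were lower for 18 of 23 tested in the c-kit+/CD45- cells and for 19 of 23 at passage 8, both against the c-kit+/CD45+ cells, and higher for 0. Of these, 16 were well above background on both c-kit+/CD45- arrays and 15 on both passage 8 arrays. A higher call was hardly open to the others. Among all genes tested, 10.5% and 10.9% were lower. Fcgr3, an Fc receptor that also uses Fcer1g, was 352-fold lower in the c-kit+/CD45- cells, or at least 213-fold with 1 of 2 arrays above background, and at least 1212-fold lower at passage 8. Marco, a scavenger receptor, was 97.2-fold and 249-fold lower, and Trem2, a lipid receptor that uses Tyrobp, was 86.2-fold lower in the c-kit+/CD45- cells. Tlr2, a receptor of bacterial lipopeptides, changed less, 9.92-fold. Without c-kit+/CD45+ replicate 2 the first count went from 18 to 6.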
